A study of Homo sapiens with 18 samples.

Results

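The comparison described here sets HK-2 cells exposed to DMSO for 24 h against HK-2 cells exposed to ethanol for 24 h. It takes in 6 of the 18 arrays of the series, 3 for each solvent, and the members were chosen by the sample titles alone. HK-2 is an immortalized line made from human renal proximal tubular epithelium, and the labels describe the 3 arrays of a group as biological replicates of this line. The series measured control treatments for a wider study of compounds that damage the kidney. It holds medium alone, DMSO and ethanol, each at 24 h and 48 h, with 3 arrays in each of the 6 groups. The labels name no serum, and all groups grew in a mixture of DMEM and Ham's F12 with 10 ng/ml EGF, 36 ng/ml hydrocortisone, insulin, transferrin and selenite. They were seeded a day before treatment and treated near confluence. Neither solvent's dose was stated in the labels used here. The series' own text gives another shorter time than the sample labels, and the labels' 24 h was used. With 1 line in culture, fewer cells that express a gene and less RNA of it per cell cannot be told apart.

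DMSO and ethanol are the solvents in which test compounds are most often dissolved, so the comparison asks how far a vehicle control depends on the choice of vehicle. Ethanol is a substrate of alcohol dehydrogenases, and DMSO is reduced or oxidised at its sulfur by other enzymes. Tubular epithelial cells in culture hold stress fibres and focal adhesions, and the genes of these structures are switched on through the transcription factor SRF, which follows actin assembly, and through YAP with TEAD factors, which follow tension and cell density. Injured tubular cells make KIM-1, lipocalin and inflammatory cytokines, and the unfolded protein response raises chaperones when proteins misfold in the endoplasmic reticulum.

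Values are log2 expression after GCRMA, so a difference of 1 is a change of 2-fold. Differences are DMSO minus ethanol, given with the standard error of the fit, and a value under 4 lies near the background of the array. The 6 arrays had medians between 2.891 and 2.912, and 39.7% to 40.3% of probe sets lay above 4 on each. The third ethanol array stood apart. On the first principal component of the 6 arrays, which held 60.7% of the variance, it scored 59.8 and the other 5 lay between -20.7 and 1.7. Results that rest on it are given with and without it, the version without leaving out the ethanol replicate 3 arrays of both times. Markers of mature proximal tubule were mostly at background: 3 of 17 list members could be tested (PAX8, CDH6 and SLC3A1), and LRP2, CUBN, AQP1 and SLC34A1 stayed under 3 on all 6 arrays. None of 8 endothelial and 6 immune markers with a probe set was above the level. Of 11 fibroblast and mesenchymal markers 4 were, and the log2 of their summed level was 12.17 to 12.73 with DMSO and 11.80 to 12.10 with ethanol; for 2 of 9 markers of distal tubule and collecting duct it was 9.20 to 9.52 and 7.22 to 9.67. Of 5 podocyte markers 3 were above the level, with a log2 summed level of 13.17 to 13.42 with DMSO and 12.63 to 13.19 with ethanol. Of 6 keratinocyte markers 1 was, at 9.96 to 10.17 and 10.21 to 10.40. The part of all these markers in the results was not tested.

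Control probe sets also moved with the solvent. The 28S ribosomal RNA set read 8.28, 7.57 and 7.97 with DMSO and 9.68, 8.95 and 9.53 in medium, while ethanol arrays read 10.81, 10.33 and 10.61. Its mean was 2.64 lower with DMSO than with ethanol. The 3 sets for 18S ribosomal RNA were lower with DMSO by 1.37 to 2.23, again without overlap. All 9 hybridization spikes, which are bacterial or phage transcripts added in the laboratory, were lower with DMSO without overlap. Their mean was 10.03, 9.95 and 10.27 with DMSO against 10.57, 10.58 and 10.92 with ethanol. Actin probe sets from the 3′ and the 5′ end differed by 0.86 with DMSO and 0.75 with ethanol, with overlap. The part of these shifts in the gene results below was not tested.

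Of 10832 genes tested, 67 passed at an adjusted p under 0.05 (0.619%; limma, Benjamini-Hochberg over all genes). The 36 that were higher with DMSO were 0.332% of genes, and the 31 that were higher with ethanol were 0.286%. Their 3 DMSO arrays and 3 ethanol arrays did not overlap in any of the 67; over all genes, 19.6% had groups that did not overlap, 11.7% with DMSO and 7.86% with ethanol as the higher group. Differences of 2-fold or more were found in 17 of them, 9 higher with DMSO and 8 higher with ethanol. Among the 9, TAGLN, MTSS2 and AGAP2-AS1 were above 4 on no ethanol array and entered the test through the other groups. At an unadjusted p under 0.05 there were 1394 genes, where 541.6 are expected by chance. With the replicate number as a block, 353 genes passed (3.26%), 225 higher with DMSO (2.08%) and 128 higher with ethanol (1.18%), and these held all 67. Without both ethanol replicate 3 arrays 272 passed, of which 62 were among the 67. The count moved widely with the arrays used: it was 5 without DMSO replicate 1, 8 without ethanol replicate 2, 17 without DMSO replicate 2, 26 without DMSO replicate 3, 36 without ethanol replicate 1 and 101 without ethanol replicate 3. Fitted on the 6 arrays alone, limma called 0 genes, with 1179 at an unadjusted p under 0.05. The balance of directions also moved with the scaling, to 15 higher with DMSO and 25 with ethanol after quantile normalization and to 30 and 41 after centring each array on its median.

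Several genes that bind or regulate actin were higher with DMSO, and others, NCKAP1 and CNN3 among them, were higher with ethanol and are given further below. TAGLN, the gene of transgelin, which binds actin filaments, read 6.40, 6.13 and 6.02 with DMSO and 3.11, 2.56 and 3.34 with ethanol. In medium it read 7.21, 4.39 and 5.72. All 3 ethanol arrays lay under the level of 4, so ethanol was at background while DMSO and medium were above it. The difference was 3.18 ± 0.46 (adjusted p = 0.00797), and because 1 group is at background its size is not exact. A second TAGLN probe set differed by 1.85.

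MTSS2, which encodes a protein that bends membranes and binds actin, was also at background with ethanol. It read 5.17, 4.87 and 4.66 with DMSO and 2.73, 2.85 and 3.39 with ethanol, so every ethanol array was under 4. In medium it read 5.64, 4.15 and 5.65. The difference was 1.91 ± 0.34 (adjusted p = 0.0242). SSH1 encodes the slingshot phosphatase that activates cofilin, which cuts actin filaments. SSH1 read 7.26, 7.29 and 6.91 with DMSO and 7.36, 7.17 and 6.93 in medium, whereas ethanol arrays read 6.21, 6.13 and 6.10. DMSO and medium lay at one level and ethanol at 1.00 ± 0.16 below DMSO (adjusted p = 0.0125), a change of 2-fold.

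CDC42EP3, an effector of the small GTPase CDC42, read 9.13, 9.08 and 9.32 with DMSO and 8.30, 7.99 and 8.57 with ethanol, a difference of 0.89 ± 0.18 (adjusted p = 0.0443). Its 3 other probe sets differed by 1.34, 0.70 and 1.11. WIPF2, a partner of the WASP proteins that start actin branches, read 9.52, 9.25 and 9.51 with DMSO and 8.78, 8.69 and 8.84 with ethanol. The difference was 0.66 ± 0.11 (adjusted p = 0.0149), and its 2 other probe sets gave 0.83 and 0.71. PARVA, which encodes a focal adhesion protein that joins integrins to actin, read 8.86, 8.70 and 8.73 with DMSO against 8.25, 8.05 and 8.04. It differed by 0.65 ± 0.09 (adjusted p = 0.00797), and its 4 other probe sets had the same direction, between 0.19 and 0.52.

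**Figure D1:**
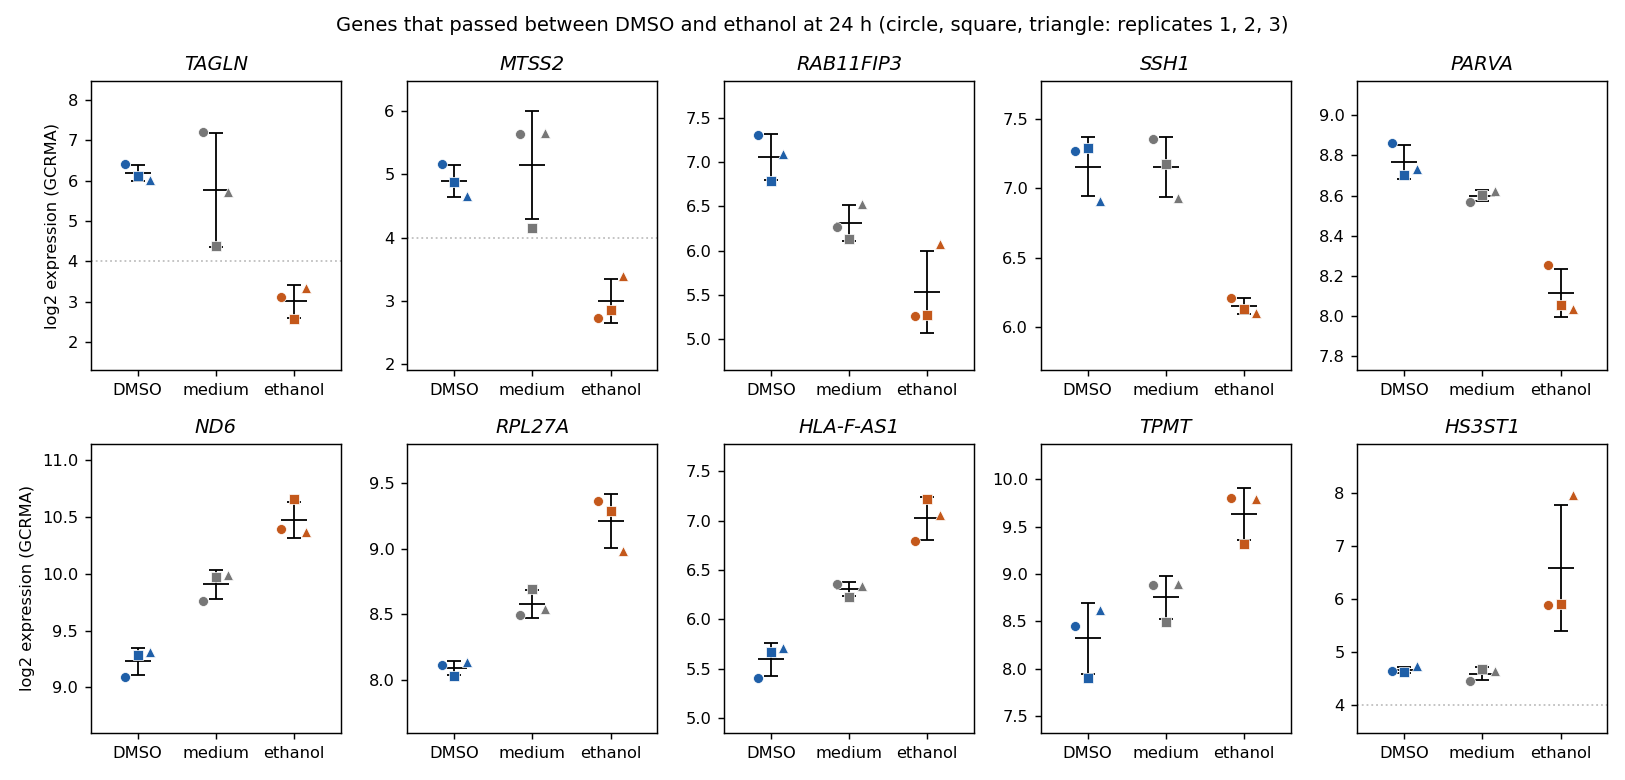
Log2 expression at 24 h of 10 genes that passed, for DMSO, medium and ethanol; each point is 1 array (circle, square and triangle for replicates 1, 2 and 3), with the mean and SD of 3 arrays, and the dotted line marks the level of 4. In the upper row DMSO lies above ethanol and in the lower row below it, and TAGLN and MTSS2 have all 3 ethanol arrays under 4.

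CFL1, the cofilin gene itself, differed by -0.02 and LIMK1, whose product inactivates cofilin, by 0.85 ± 0.44, and neither passed; both were chosen after their values were seen. Of the 21 tested SRF and YAP targets, 1 passed, TAGLN, which was tested through DMSO and medium arrays alone. A higher mean with DMSO was found in 19, as in 57.0% of all genes. The median difference was 0.35 over the list and 0.04 over all genes. With the replicate block 3 more of them passed: TLN1 and VCL, which encode talin and vinculin of the focal adhesion, and MYH9, the heavy chain of a nonmuscle myosin; over all genes 2.08% passed with the block as higher with DMSO. None of the 21 passed as higher with ethanol. Without ethanol replicate 3 the list median was 0.55 and 4 passed, TAGLN, TLN1, CCN2 and THBS1. In that fit 142 of all 10832 genes passed as higher with DMSO.

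TLN1 read 7.43, 6.99 and 7.79 with DMSO and 6.36, 5.55 and 6.61 with ethanol. Within each replicate number the gap was wide, and the groups did not overlap. The difference was 1.23 ± 0.34, with an adjusted p of 0.132 without the block and 0.00133 with it, and it was 1.45 without ethanol replicate 3 (adjusted p = 0.0346). VCL read 12.23, 11.97 and 12.01 against 11.52, 11.43 and 11.80, a difference of 0.49 ± 0.15 (adjusted p = 0.172, and 0.0289 with the block). MYH9 read 10.84, 10.56 and 11.06 against 10.19, 9.81 and 10.66, with overlap between the groups. It differed by 0.60 ± 0.25 (adjusted p = 0.313, and 0.0170 with the block).

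Other SRF and YAP targets had high DMSO values without passing either test. CCN2, a matricellular YAP target, read 9.83, 9.19 and 9.62 with DMSO and 8.17, 8.56 and 8.45 with ethanol, a difference of 1.15 ± 0.45. THBS1, which encodes thrombospondin, read 8.58, 7.83 and 8.08 against 6.62, 6.42 and 8.19. The third ethanol array was in the DMSO range, and the difference was 1.08 ± 0.55. Without ethanol replicate 3 both passed, CCN2 at 1.18 (adjusted p = 0.0342) and THBS1 at 1.64 (adjusted p = 0.0426).

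The promoters of the list members that passed are shown so that their letters can be set beside these values. They come from RefSeq on GRCh38.p14 and run from 250 bases before to 50 after the gene's start; 18 of the 21 tested list genes had an entry, and TAGLN did not. Capitals mark the core GGAATG that TEAD factors bind, searched on both strands as GGAATG or CATTCC. The VCL promoter lies at chr10:73997866-73998165 on the plus strand, the MYH9 promoter at chr22:36387918-36388217 on the minus strand and the TLN1 promoter at chr9:35732146-35732445 on the minus strand.
VCL: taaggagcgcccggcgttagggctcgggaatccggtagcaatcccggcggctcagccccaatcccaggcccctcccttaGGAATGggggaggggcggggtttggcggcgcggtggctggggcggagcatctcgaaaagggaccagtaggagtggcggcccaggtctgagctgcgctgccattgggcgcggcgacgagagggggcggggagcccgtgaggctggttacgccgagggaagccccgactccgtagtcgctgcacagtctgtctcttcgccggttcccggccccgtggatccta
MYH9: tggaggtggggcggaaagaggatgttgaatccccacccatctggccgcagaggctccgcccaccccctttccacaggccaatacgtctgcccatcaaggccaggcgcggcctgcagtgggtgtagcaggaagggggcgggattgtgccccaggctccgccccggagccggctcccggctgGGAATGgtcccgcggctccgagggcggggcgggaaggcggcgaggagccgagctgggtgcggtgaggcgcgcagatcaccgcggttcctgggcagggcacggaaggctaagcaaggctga
TLN1: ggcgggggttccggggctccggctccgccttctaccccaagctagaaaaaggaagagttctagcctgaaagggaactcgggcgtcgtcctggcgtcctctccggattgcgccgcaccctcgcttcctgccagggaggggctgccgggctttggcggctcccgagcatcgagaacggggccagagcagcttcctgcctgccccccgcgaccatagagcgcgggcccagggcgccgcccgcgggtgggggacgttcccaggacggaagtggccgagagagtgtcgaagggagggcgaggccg
The core stands once in the VCL window, 171 bases before the start, and once in the MYH9 window, 70 bases before it, and it is not in the TLN1 window. It is found in 14.03% of the 35116 promoters of the table, 16.7% of its genes, and in 11 of the 18 list genes. The CArG box, which SRF binds, was not in these 3 windows. It was in 1.29% of all promoters, 1.6% of the genes they belong to, and in 6 of the 18 list genes, which were put on the list as known targets. A match is a description of the letters and says nothing of binding in these cells.

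RAB11FIP3 had the smallest p among the genes that were higher with DMSO. It encodes a Rab11 partner that guides recycling vesicles and helps daughter cells part. DMSO arrays read 7.30, 6.78 and 7.09, medium arrays 6.26, 6.13 and 6.53, and ethanol arrays 5.26, 5.27 and 6.07, so medium lay between both solvents. The difference was 1.52 ± 0.21 (adjusted p = 0.00699).

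Nuclear and mitochondrial genes were among the rest. EP400, the ATPase of a chromatin remodelling complex, read 7.77, 7.90 and 7.46 with DMSO against 6.46, 6.73 and 6.56, a difference of 1.13 ± 0.20. CHD7, another chromatin remodeller that was chosen after its values were seen, differed by 0.94 ± 0.16. Its 2 other probe sets gave 0.30 and -0.05, so they did not share a direction. NCOA5, a coactivator of nuclear receptors, differed by 1.04 ± 0.22. MRPL2, a protein of the mitochondrial ribosome, differed by 1.01 ± 0.21 with a second probe set at 0.86. GATB, which helps charge a mitochondrial tRNA, read 7.93, 7.92 and 7.87 against 7.32, 7.27 and 7.46 and differed by 0.56 ± 0.09. Within each solvent GATB spread little. FGB, the fibrinogen beta chain, differed by 1.06 ± 0.19 with a second probe set at 1.42, ZNF275, a zinc finger gene, by 0.98 ± 0.16 with a second set at 1.33, and the noncoding AGAP2-AS1 by 1.06 ± 0.19 with a mean under 4 in ethanol.

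Membrane and junction genes were chosen after their values were seen. EHD2, an ATPase of the neck of caveolae, read 10.29, 9.88 and 10.09 with DMSO and 9.38, 9.07 and 9.35 with ethanol, a difference of 0.82 ± 0.17 with 2 other probe sets at 1.15 and 0.86. DSP, the desmosome protein desmoplakin, read 8.01, 8.26 and 7.84 against 7.46, 7.07 and 6.82, a difference of 0.92 ± 0.19. MICAL1, an enzyme that oxidises actin, differed by 0.70 ± 0.13. TEAD2, the DNA-binding partner of YAP, read 8.90, 8.58 and 8.79 against 8.05, 7.40 and 7.89. It passed with the replicate block alone, at 0.98 ± 0.27 (adjusted p = 0.132, and 0.00401 with the block).

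Among the genes that were higher with ethanol, the smallest p belonged to RPL27A, a protein of the cytosolic ribosome. It read 8.11, 8.03 and 8.13 with DMSO, 8.58 on average in medium, and 9.37, 9.29 and 8.98 with ethanol. The difference was -1.12 ± 0.11 (adjusted p = 0.000726). RPLP2, a protein of the ribosomal stalk chosen after its values were seen, differed by -0.79 ± 0.14 but lay near background at 3.99, 3.91 and 4.09 against 4.74, 4.84 and 4.77. The pseudogene RPL7AP10 differed by -0.90 ± 0.12.

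ND6, a subunit of respiratory complex I and the only protein gene on the light strand of mitochondrial DNA, read 9.09, 9.29 and 9.31 with DMSO. Medium arrays read 9.76, 9.97 and 9.99, and ethanol arrays 10.39, 10.65 and 10.37. The 3 groups stood in steps with medium in the middle. The difference was -1.24 ± 0.14 (adjusted p = 0.00108). The 6 other mitochondrially encoded genes that could be tested did not pass and lay between -0.07 and 0.19. HLA-F-AS1, an antisense RNA beside HLA-F, had the same steps: 5.41, 5.67 and 5.71 with DMSO, 6.31 on average in medium, and 6.79, 7.22 and 7.06 with ethanol, a difference of -1.43 ± 0.16 (adjusted p = 0.00108). Whether the probes for ND6 and HLA-F-AS1 read 1 strand alone was not tested.

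HS3ST1, which adds a sulfate to heparan sulfate, had the largest difference of this direction and rested partly on 1 array. It read 4.64, 4.63 and 4.73 with DMSO and 5.89, 5.92 and 7.96 with ethanol. The difference was -1.92 ± 0.40 (adjusted p = 0.0451), and -1.24 (adjusted p = 0.00463) without ethanol replicate 3, so it passed on the first 2 ethanol arrays as well. ABCA12, a lipid transporter, read 7.51, 8.54 and 7.83 against 8.95, 9.40 and 9.74. It differed by -1.40 ± 0.29 (adjusted p = 0.0454) and no longer passed without ethanol replicate 3, at -1.22 (adjusted p = 0.0681).

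LGR4, a receptor for R-spondins that strengthens Wnt signals, read 8.98, 8.80 and 8.92 with DMSO and 9.81, 9.95 and 10.21 with ethanol, a difference of -1.09 ± 0.21. CTNNB1, the gene of beta-catenin, which serves Wnt signalling and cell junctions, was the only gene of 17 on the claudin, junction and cadherin list that passed. It read 10.17, 10.10 and 10.41 against 11.12, 10.96 and 10.78, a difference of -0.73 ± 0.12. Its 2 other probe sets gave -0.19 and 0.24, so they did not share a direction. Without ethanol replicate 3, 3 members of the list passed as higher with ethanol, as did 130 of all 10832 genes. CDH11, which could be tested through ethanol arrays alone, was 1 of the 3. The list median was 0.04 with that replicate and -0.10 without it. B4GALT1, a galactosyltransferase of the Golgi, differed by -0.93 ± 0.18, and its 2 other probe sets had the opposite sign, at 0.51 and 0.68.

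A few genes of actin branching and detoxification were also higher with ethanol, and these were chosen after their values were seen. NCKAP1, a subunit of the WAVE complex that drives actin branching, read 12.01, 11.89 and 12.26 with DMSO and 12.58, 12.95 and 12.73 with ethanol, and differed by -0.70 ± 0.13 with a second probe set at -0.96. CNN3, an actin-binding calponin, differed by -0.72 ± 0.15 while its other probe set gave 0.26. MGST1, a membrane-bound glutathione transferase, differed by -0.44 ± 0.08 with DMSO at 13.18, 13.35 and 13.22 and ethanol at 13.70, 13.68 and 13.67. Its 3 other probe sets gave -0.45, -0.47 and 0.14.

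Both directions differed in how far other probe sets of the same genes followed. Of the 36 genes that were higher with DMSO, 26 had other probe sets above the level, and 42 of these 44 sets had the same sign. The median of the other sets was taken per gene, and the median of these over the 26 genes was 0.40, against 0.75 for the sets tested. Of the 31 that were higher with ethanol, 20 had others, and 21 of these 34 sets had the same sign. The median over these 20 genes, taken in the same way, was -0.01 against -0.73. Probe sets with the suffix x_at, which can bind transcripts of several genes, were 1 of the 36 and 8 of the 31, and 6.3% of all genes tested. TPMT, which methylates thiopurine drugs, and TCTN2, a ciliary protein, were read by such sets, at -1.31 ± 0.21 and -0.97 ± 0.15, and the other TPMT set gave 0.05. MGST1 was read by such a set as well. With the probe sets of a gene averaged, the differences of named genes that had passed were over 1.5 times smaller for RAB11FIP3 (0.75), EP400 (0.68), PARVA (0.42), LRRC28 (0.34), LGR4 (-0.67), TPMT (-0.63), LRRC14 (-0.30), CTNNB1 (-0.23) and CNN3 (-0.23), and B4GALT1 turned to 0.086. Of these RAB11FIP3 and EP400 still passed. CHD7 was not among the genes followed in this way. The difference between both directions was not tested.

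**Figure D2:**
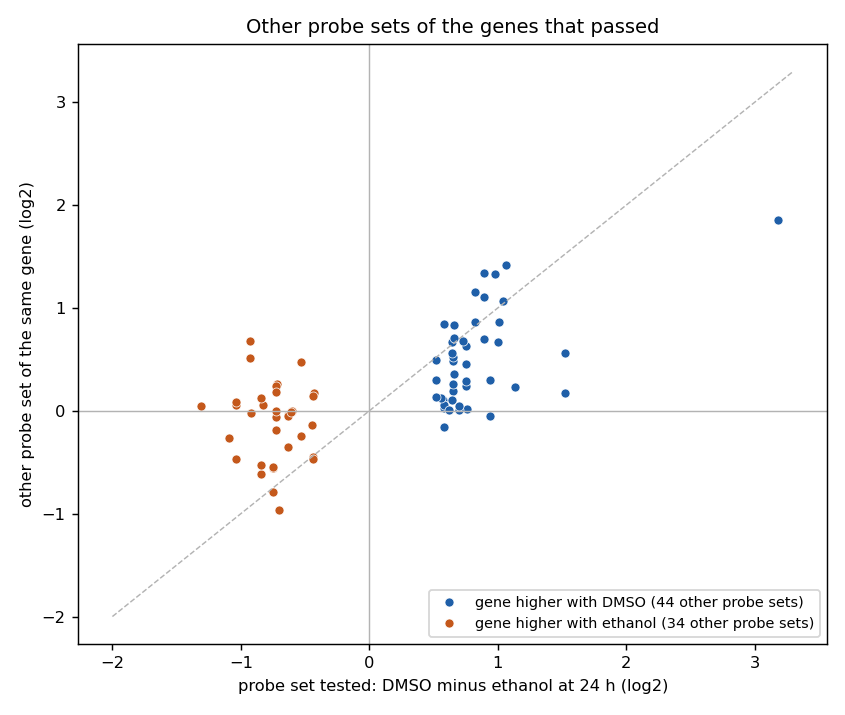
Differences between DMSO and ethanol at 24 h (log2) in other probe sets of the genes that passed, on the vertical axis, against the probe set that was tested, on the horizontal axis; each point is 1 other probe set and the dashed line marks equal values. Of 44 other sets of genes higher with DMSO, 42 lie above 0, and of 34 other sets of genes higher with ethanol, 21 lie below 0.

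Medium at 24 h shows where each solvent stood. These values share arrays with the comparison and are set side by side with no test. The genes were chosen by their gap between DMSO and ethanol, which by itself makes a medium mean in between more likely. No share over all genes is given beside the counts that follow. For the 36 genes that were higher with DMSO, the medium mean was nearer to DMSO in 34, all but GNAO1 and LRRC28, and the median difference was 0.10 for DMSO minus medium and -0.71 for ethanol minus medium. In 30 of them medium lay between both solvents. For the 31 genes that were higher with ethanol, medium lay between in 29 and was nearer to DMSO in 16, with medians of -0.37 for DMSO minus medium and 0.40 for ethanol minus medium. The ribosomal RNA sets and the spikes above had medium in between as well.

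As on the SRF and YAP list, few genes passed on the lists of other pathways. None of 16 genes of the TGF-beta response and matrix list passed, although 13 had a higher mean with DMSO and the list median was 0.48. Without ethanol replicate 3 the median was 0.33 and 2 passed, SMAD7 at 0.95 (adjusted p = 0.0368) and INHBA, an activin subunit, at 2.57 (adjusted p = 0.00685). Of all 10832 genes 142 passed as higher with DMSO in that fit. The genes of this list were named after their values were seen. TGFB1, a ligand of the pathway, read 10.62, 9.81 and 10.00 with DMSO and 9.53, 9.45 and 8.72 with ethanol, a difference of 0.91 ± 0.39. SMAD7, a feedback inhibitor, differed by 0.76 ± 0.22 and missed the threshold with the block as well (adjusted p = 0.0651). Of 15 cholesterol genes 12 had a higher mean with ethanol and none passed, with a median of -0.22 that was -0.05 without ethanol replicate 3, and of 15 hypoxia genes 12 did so and none passed, with a median of -0.20. Without ethanol replicate 3 the hypoxia gene BNIP3 passed, at -0.59 (adjusted p = 0.0342), as did 130 of all 10832 genes as higher with ethanol. Of 7 tested genes for alcohol and aldehyde metabolism none passed: ALDH1B1, a mitochondrial aldehyde dehydrogenase, differed by -0.14 ± 0.28 and ACSS2, which turns acetate into acetyl-CoA, by 0.25 ± 0.25. The methionine sulfoxide reductase gene MSRA differed by 0.10 ± 0.17.

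With the replicate block, single members of further lists passed. FASN, the fatty acid synthase, read 10.42, 9.87 and 10.20 with DMSO and 9.17, 9.21 and 9.58 with ethanol, a difference of 0.85 ± 0.29 (adjusted p = 0.219, and 0.0165 with the block). TUBB4A, a beta-tubulin, differed by 1.19 ± 0.40 (0.202 and 0.0234). FOSL1, a subunit of AP-1, read 5.69, 5.48 and 7.32 against 2.94, 2.92 and 6.43, so the third array of each solvent was the high one. It differed by 2.07 ± 0.96 (adjusted p = 0.383, and 0.0467 with the block), and by 3.23 without ethanol replicate 3 (adjusted p = 0.0709). In the other direction, SERPINA6, the gene of the corticosteroid-binding globulin, read 6.27, 6.76 and 6.42 with DMSO and 7.89, 7.83 and 10.38 with ethanol. It differed by -2.22 ± 0.51 (adjusted p = 0.0684, and 0.0338 with the block), and -1.37 without ethanol replicate 3 (adjusted p = 0.0131). ACSL4, which puts polyunsaturated fatty acids into lipids, differed by -1.54 ± 0.51 (adjusted p = 0.197, and 0.0302 with the block), and by -0.97 without ethanol replicate 3 (adjusted p = 0.0816). Smaller differences that passed with the block alone were 0.67 for ZMAT3 and 0.52 for GADD45B, both p53 targets on the list, 0.77 for ETV4, a factor that follows ERK signalling, and 0.35 for BAG3, a partner of heat shock proteins. FKBP5, a glucocorticoid target, differed by 0.45 ± 0.26, and by 0.0845 without ethanol replicate 3, and passed neither test.

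**Figure D3:**
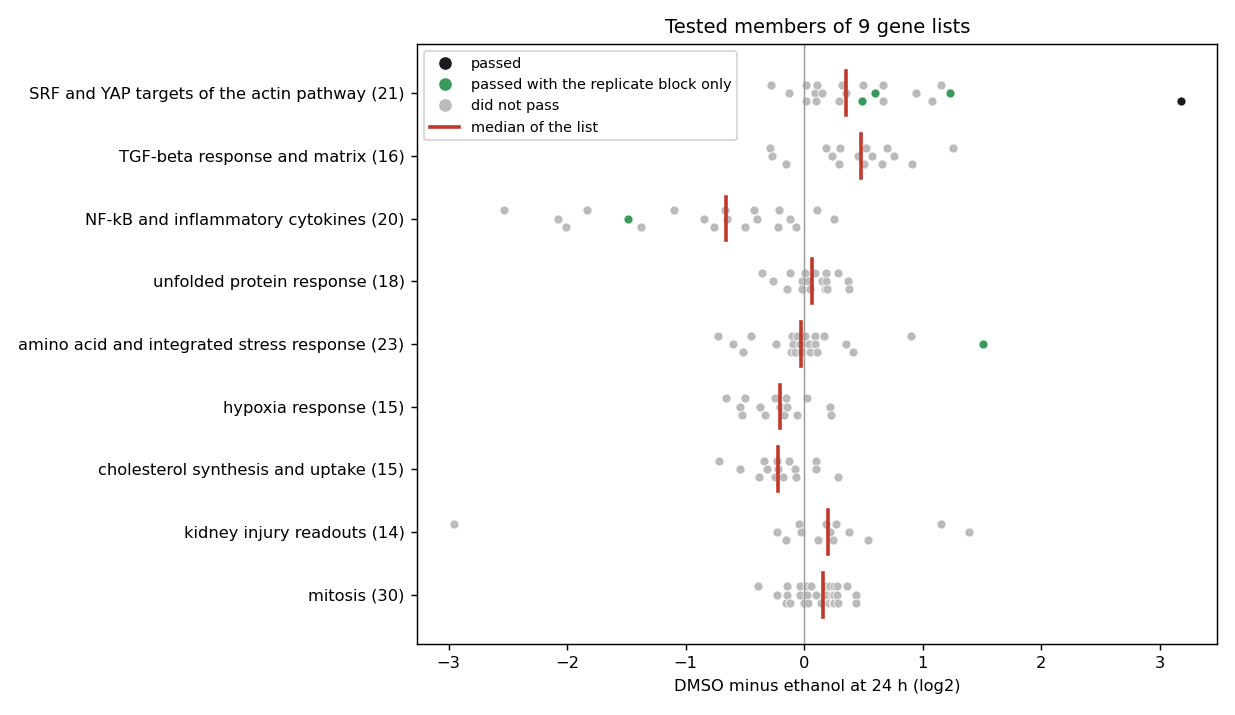
Differences between DMSO and ethanol at 24 h (log2) for the tested members of 9 gene lists, with the number of members in brackets; each point is 1 gene, dark where it passed, green where it passed with the replicate block alone and grey where it did not pass, and the bar is the list's median. The SRF and YAP list has its median at 0.35 and the NF-kB list at -0.66, where 1 of 20 members passed and only with the block.

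Most of the shift in inflammatory genes rested on a single ethanol array. None of the 20 genes of the NF-kB and cytokine list passed, and 18 had a higher mean with ethanol. The list's median difference was -0.66, and 0.04 without ethanol replicate 3. The median level of the list, centred per gene, was -0.10 and 0.10 on the first 2 ethanol arrays and 1.79 on the third. CCL20, a chemokine, read 4.53, 5.98 and 5.41 with DMSO and 4.55, 5.32 and 13.65 with ethanol. IL6 read 3.50, 4.07 and 5.02 against 3.35, 3.87 and 11.59, and LCN2, which encodes the injury marker lipocalin-2, read 3.29, 2.84 and 3.55 against 3.11, 3.29 and 12.15. In all 3 genes the first 2 ethanol arrays lay in or just under the DMSO range, and the third was far above it.

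CXCL8, the gene of interleukin-8, read 12.43, 12.66 and 12.59 with DMSO and 12.47, 12.65 and 14.57 with ethanol. TNFAIP3, an inhibitor of NF-kB, differed by -1.83 ± 0.83 and by -0.54 without ethanol replicate 3. MMP1, the interstitial collagenase, reached 13.08 on the third array, and the neuroendocrine gene SCG5 reached 9.32 there while it was at background on the other 5. SOD2, the mitochondrial superoxide dismutase, was the list member that passed with the block, at -1.49 ± 0.38 (adjusted p = 0.110, and 0.00443 with the block). It read 8.58, 8.60 and 9.14 with DMSO and 9.60, 9.95 and 11.23 with ethanol, without overlap, and without ethanol replicate 3 it differed by -1.0 (adjusted p = 0.0736).

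**Figure D4:**
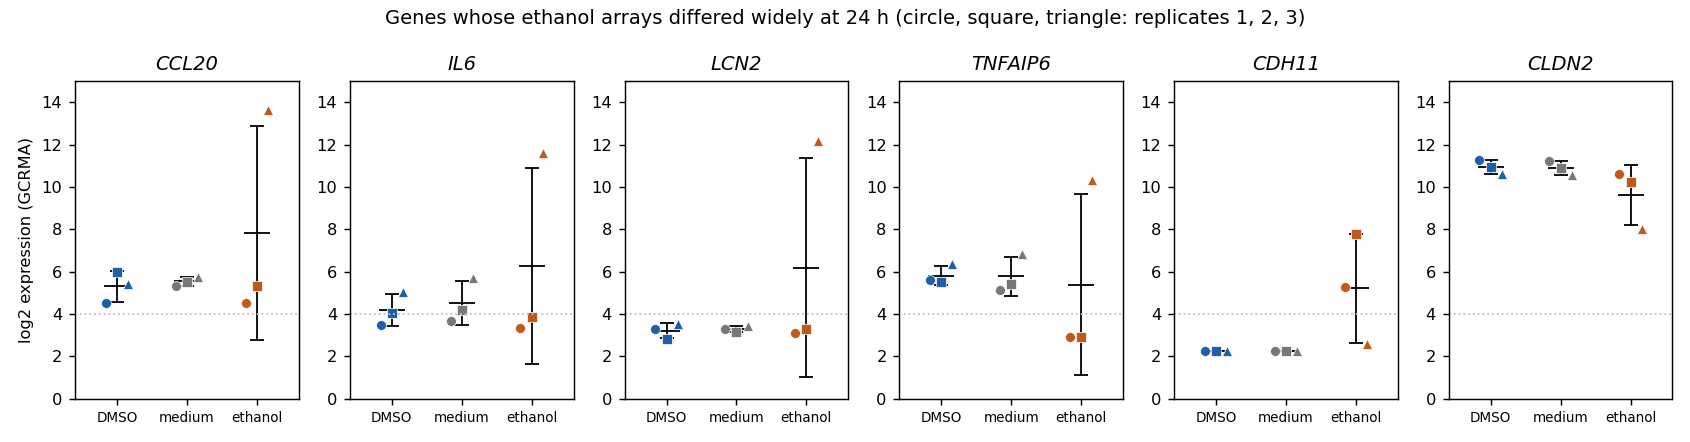
Log2 expression at 24 h of 6 genes whose ethanol arrays differed widely, for DMSO, medium and ethanol; each point is 1 array (circle, square and triangle for replicates 1, 2 and 3), with the mean and SD of 3 arrays. CCL20, IL6, LCN2 and TNFAIP6 are above 10 on the third ethanol array alone, while CDH11 is above 4 on the first 2 ethanol arrays and CLDN2 is lowest on the third.

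No kidney injury readout passed in the fit of all arrays. Without ethanol replicate 3, 2 passed as higher with DMSO, as did 142 of all 10832 genes. These 2 were CCN2 and SOX9, the latter at 2.48 (adjusted p = 0.0109). The 14 tested lay between -2.96 for LCN2 and 1.39 for SOX9, a factor of tubular repair chosen after its values were seen, with a list median of 0.20. HAVCR1, which encodes KIM-1, read 11.18, 11.32 and 11.37 with DMSO and 11.19, 10.90 and 10.98 with ethanol, a difference of 0.27 ± 0.15 (adjusted p = 0.489). HMOX1, the gene of heme oxygenase, differed by 0.22 ± 0.26, CDKN1A, the cell cycle inhibitor p21, by 0.12 ± 0.27, and CLU, the chaperone clusterin, by -0.15 ± 0.29. SPP1, the gene of osteopontin, differed by -0.23 ± 0.10 in the probe set tested. With its probe sets averaged it differed by -1.39 and passed (adjusted p = 0.000738), so its sets did not give 1 size. The proliferation gene MKI67 had a difference of 0.18 ± 0.24. A p above the threshold does not show that these levels were equal.

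Stress genes of the endoplasmic reticulum did not pass at 24 h, and this set the time apart from 48 h. Of 18 tested genes of the unfolded protein response none passed, and the list median was 0.07 at 24 h, or -0.03 without ethanol replicate 3, and -2.0 at 48 h. HSPA5, the chaperone BiP, read 12.71, 12.58 and 13.05 with DMSO and 12.47, 12.51 and 12.52 with ethanol at 24 h. Its difference was 0.28 ± 0.18 at 24 h and -2.48 at 48 h, and the change between both times was 2.77 ± 0.25 (adjusted p = 6.65e-05). DDIT3, the death-linked factor CHOP, differed by -0.08 ± 0.47 at 24 h and -3.91 at 48 h. ATF3, a factor of the integrated stress response, differed by -0.23 ± 0.71 and -5.13, and the third ethanol array was at 7.16 where the first 2 were at 4.11 and 4.16.

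SLC7A11, the cystine transporter that feeds glutathione synthesis, turned direction between the times. At 24 h it read 6.38, 6.91 and 6.59 with DMSO and 4.84, 6.02 and 4.48 with ethanol, so ethanol was lower on every array. The difference was 1.51 ± 0.39 (adjusted p = 0.110, and 0.0284 with the block), and -2.98 at 48 h. The change between the times was 4.50 ± 0.55 (adjusted p = 0.000812).

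Tested over all genes, the difference between DMSO and ethanol changed from 24 h to 48 h in 197 genes (1.82%; limma, adjusted p under 0.05), 169 with the more positive difference at 24 h (1.56%) and 28 at 48 h (0.258%). With the replicate block 526 changed, 333 and 193. The count was 722 without ethanol 48 h replicate 1, and it was lower by over 1.5 times without DMSO replicate 1, 2 or 3 at 24 h (127, 126 and 111), without DMSO replicate 1 or 3 at 48 h (110 and 99) and without ethanol replicate 1 at 24 h (108). Without the block 3 of the 67 genes were among the 197: TAGLN, CDC42EP3 and RPL27A. The TAGLN difference was 3.18 at 24 h and 0.16 at 48 h, a change of 3.02 ± 0.65. At 48 h the mean of TAGLN was 3.14 with DMSO, 3.29 in medium and 2.98 with ethanol, so all groups were then at background, and it entered the test through the 6 arrays of DMSO and medium at 24 h alone.

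The CDC42EP3 difference was 0.89 at 24 h and -0.32 at 48 h (adjusted p of the change = 0.0252), and that of RPL27A was -1.12 and -0.44 (adjusted p = 0.0440). With the replicate block the change passed in 11 of the 67, the 3 above and 8 that were named for this count: ND6, VSIG10L, LRRC14, AGAP2-AS1, MGST1, MICAL1, CNN3 and GNAO1, with adjusted p from 0.0122 for VSIG10L to 0.0418 for CNN3 and GNAO1. The difference of ND6 was -1.24 at 24 h and -0.57 at 48 h. That of VSIG10L was 0.95 and 2.07, so it was the one of the 11 that was larger at 48 h. For the other 56 the change passed neither test, which does not show that they were alike. Of the 67, 62 had the same sign at 48 h, and the 5 that did not were CDC42EP3, GNAO1, LRRC14, MGST1 and MICAL1. The difference was smaller in size at 48 h in 58 of them, with a median of 0.76 at 24 h and 0.47 at 48 h in the 24 h direction. These genes were chosen by their values at 24 h. MTSS2 stayed at 1.84 and RAB11FIP3 at 1.26 at 48 h.

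**Figure D5:**
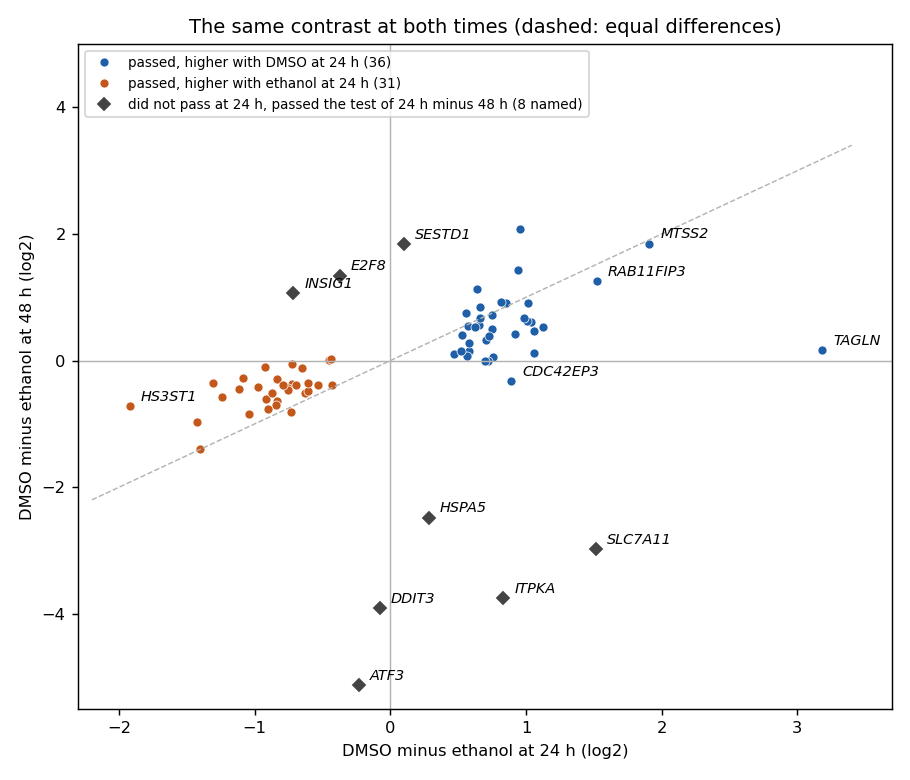
The difference between DMSO and ethanol (log2) at 48 h, vertical axis, against 24 h, horizontal axis, for the 36 and 31 genes that passed at 24 h and for 8 named genes that passed the test of the change between times; the dashed line marks equal differences. TAGLN lies far to the right near 0 at 48 h, and HSPA5, DDIT3, ATF3, SLC7A11 and ITPKA lie between -5.13 and -2.48 at 48 h.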

How the data were processed

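Per the submitters' processing notes, the authors made the deposited values with GCRMA, which corrects background, normalizes arrays together and summarises probe sets; its version was not given. The deposited log2 scale was read from the values. Affymetrix control sets were left out. Of 54675 probe sets, 41091 named 1 gene in the platform table, with symbols updated through RefSeq (41037), 1801 named several and 11721 none. Sets above 4 on at least 3 of 18 arrays were kept (19730), with the set of highest mean per gene (10832 genes). Limma 3.58.1 in R 4.3.3 fitted the means of 6 groups (12 residual and 2.65 prior degrees of freedom) with no block, two-sided, with Benjamini-Hochberg adjustment over all genes. The 24 h contrast and its difference from 48 h were tested. P-values measure the spread between the replicates of 1 line, and precision is limited by the number of arrays. The fit and its steps were tested on simulated data with independent noise of 1 SD per gene in all groups. These had no link between same-numbered replicates and no outlying ethanol array, so they say nothing on how the counts depend on those.

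Replicate numbers are shared by the groups. Deviations from the group means of same-numbered DMSO and ethanol arrays at 24 h correlated at 0.214, 0.323 and 0.424 across genes. The genes are not independent. All 3 values were above 0.1, so blocked values are given where they change a call. DMSO 2 with ethanol 1 (0.124) and DMSO 1 with ethanol 2 (0.121) were above 0.1 too. The remaining pairs were negative, down to -0.427.

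The members and the 29 gene lists and 7 marker lists were chosen with earlier results of these data known. Named genes were the 10 largest differences per direction among genes that passed without overlap, the 5 smallest p per direction, up to 4 list members per direction that passed with or without the block, a fixed set of solvent, stress and injury genes, the 3 largest changes between times per direction, and the 5 widest ranges in each solvent. Others were chosen after their values were seen. One list and 1 gene named by the rule are not reported here. Other lists not described in the results had 0 members that passed, and at most 2 with the block. Alternatives covered arrays, block, weights, normalization, filters and probe sets; leaving out x_at sets was added after seeing the data. No gene coordinates are given, since the array has no genome build.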

Additional observations from a re-analysis of the deposited data

Results flagged for a closer look

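The groups of 3 arrays were too small for a test of single outlying arrays. The difference between DMSO and ethanol changed between 24 h and 48 h in 197 genes, by the limma test of the change itself. The genes named here passed that test, and each value is the 24 h difference minus the 48 h difference on the log2 scale. Among stress genes the change was 4.89 for ATF3, 4.50 for SLC7A11, 3.83 for DDIT3 and 2.77 for HSPA5. ITPKA, a kinase that phosphorylates an inositol phosphate, changed by 4.59, from 0.83 ± 0.59 at 24 h to -3.76 at 48 h. TAGLN changed by 3.02, CDC42EP3 by 1.22 and RPL27A by -0.68.

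Like RPL27A, the other 4 had the more positive difference at 48 h. INSIG1, which holds back cholesterol synthesis, changed by -1.77, from -0.71 ± 0.21 to 1.06, SESTD1, which binds phospholipids, by -1.74, the cell cycle repressor E2F8 by -1.72 and ALDH1B1 by -1.63, from -0.14 to 1.49. The cause of these changes was not tested.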

How the results depend on the processing

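With the replicate block 353 genes passed at 24 h (225 higher with DMSO, 128 with ethanol), and 526 changed between times (333 and 193). Fits of the compared groups alone called 0 genes at 24 h with the replicate block (1461 at an unadjusted p under 0.05) and 0 without it (1179), and 98 between times with the block (91 and 7) and 58 without it (58 and 0). The 9 arrays at 24 h gave 7 (1 and 6). Without both ethanol replicate 3 arrays 272 passed (142 and 130), of which 62 were among the 67, and 44 had a higher difference at 48 h. Array weights gave 1244 (717 and 527) and 537 between times (352 and 185). Quantile normalization gave 40 (15 and 25), the mean of probe sets 34 (21 and 13, with 22 shared), all probe sets 138 (72 and 66) and 254 higher at 24 h in the time test, and leaving out x_at sets 40 (16 with ethanol, 39 shared in all). Trend and robust estimates gave 48 genes with a higher difference at 48 h. Centring, no filter and both stricter filters gave 63 to 72 genes at 24 h. Leaving out 1 array at a time gave 5 to 101 (1 to 55 with DMSO, 4 to 46 with ethanol) and 99 to 722 between times (92 to 424 and 7 to 298). Without DMSO replicate 1, 5 genes passed.

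The sign turned without both ethanol replicate 3 arrays for ACSS2 (-0.092), ATF3 (0.77), CCBE1 (0.70), CCL20 (0.37), CXCL8 (0.0007), IL6 (0.59), LCN2 (0.024), MARCHF3 (1.36), MMP1 (1.35), MT2A (0.22) and SCG5 (0.018). It turned with array weights for ATF3 (0.68), CCBE1 (0.53), CCL20 (0.27), IL6 (0.45), MARCHF3 (1.31), MMP1 (0.67), MT2A (0.12) and SESTD1 (-0.017), with quantile normalization for MSRA (-0.0018), with the mean of probe sets for B4GALT1 (0.086) and without x_at sets for TPMT (0.046). Leaving out 1 array gave -0.092 to 0.46 for ACSS2, -0.75 to 0.77 for ATF3, -1.63 to 0.70 for CCBE1, -4.18 to 0.37 for CCL20, -0.57 to 0.067 for CLU, -1.05 to 0.0007 for CXCL8, -0.43 to 0.24 for DDIT3, -3.54 to 0.59 for IL6, -0.25 to 0.86 for INCENP, -4.49 to 0.024 for LCN2, -0.99 to 0.094 for LOC105375172, -1.75 to 1.36 for MARCHF3, -2.64 to 1.35 for MMP1, -0.32 to 0.22 for MT2A, -3.53 to 0.018 for SCG5, -0.31 to 0.92 for SFTA1P and -0.81 to 2.9 for TNFAIP6. Apart from B4GALT1 and TPMT, these genes had not passed. The 38 named genes that passed were run under 787 alternatives in all and passed again in 489. No other cause of these changes was tested. In the test of the change between times the block also called CFL1, FASN, MKI67, TUBB4A and VCL, with adjusted p from 0.0104 to 0.0414. Among named genes that had not passed, leaving out both ethanol replicate 3 arrays also moved LIMK1 to 1.29, CLU to -0.57, DDIT3 to -0.43, MKI67 to 0.38 and ITPKA to 1.28. The 3 arrays of a group limit all of these results.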

Other observations

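Genes of antigen presentation were looked at after HLA-F-AS1 and HLA-G had been seen among the genes that passed, so the choice is not independent. HLA-G, a class I heavy chain, read 11.15, 10.88 and 11.08 with DMSO. Medium arrays read 11.28, 10.97 and 11.25, and ethanol arrays 11.87, 11.72 and 11.78. DMSO and medium lay at one level and ethanol above both, and the difference from DMSO was -0.75 ± 0.15 (limma, adjusted p = 0.0420). HLA-B, HLA-C and HLA-F differed by -0.75, -0.69 and -0.69 and passed with the replicate block (adjusted p of 0.0234, 0.0374 and 0.0234) but not without it. After centring each array on its median HLA-B and HLA-F passed too. HLA-F passed without ethanol replicate 3 as well, at -0.74 (adjusted p = 0.0420). HLA-E differed by -0.56 and passed neither with the block (adjusted p = 0.0797) nor without it (adjusted p = 0.360). B2M, the light chain that all class I molecules share, read 13.96, 14.22 and 14.03 against 14.52, 14.49 and 14.43 and differed by -0.41 ± 0.10 (adjusted p = 0.0995, and 0.0204 with the block).

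The loading genes of the same pathway did not pass either test. TAP1, a peptide transporter, differed by -0.05, PSMB9, a subunit of the immunoproteasome, by -0.20, and TAPBP, the gene of tapasin, by 0.26 in the other direction. The 5 HLA genes were read by x_at probe sets, which can bind transcripts of each other, so they are not separate measurements, whereas the B2M set is not of that kind.

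Some genes differed widely among the ethanol arrays. CDH11, a mesenchymal cadherin, was at background with DMSO (2.27, 2.25 and 2.27) and read 5.28, 7.77 and 2.60 with ethanol. It was above the level of 4 on 4 of the 18 arrays, all of them with ethanol, and could be tested through these alone, so no p is given. TNFAIP6, a hyaluronan-binding protein, read 5.60, 5.51 and 6.34 with DMSO and 2.91, 2.92 and 10.33 with ethanol, so its ethanol arrays lay on both sides of DMSO. Its difference was 0.43 ± 1.64, and 2.9 without ethanol replicate 3, where the other ethanol arrays are at background. CLDN2, a claudin of leaky tight junctions, read 11.25, 10.95 and 10.60 against 10.62, 10.25 and 8.0, a difference of 1.31 ± 0.66, and 0.50 without ethanol replicate 3. Proteoglycan DCN read 12.14, 12.17 and 11.61 against 11.09, 10.75 and 11.14, without overlap, and passed only without ethanol replicate 3, at 1.05 (adjusted p = 0.0203).

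The widest ranges among the 3 DMSO arrays belonged to MARCHF3, at 3.11, 3.01 and 5.60, and to CCBE1, at 2.88, 2.86 and 5.38, where the third array of each solvent was the high one. SFTA1P, INCENP and LOC105375172 spanned 2.44, 2.22 and 2.16 among the DMSO arrays. None of these 5 passed. MT2A, a metallothionein, read 14.60, 14.49 and 14.52 with DMSO and 14.44, 14.20 and 15.28 with ethanol, a difference of -0.10 ± 0.26.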
